A study of Mus musculus with 2 samples.

Results

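A group of fibroblast-like progenitors of mouse white fat was described by the combined level of Ptn, Ackr4, Ppp2r2b and Enpp3. Barcodes with at least 1000 UMIs (unique molecular identifiers, each standing for 1 captured RNA molecule), at least 500 genes, at most 10% mitochondrial UMIs and at least 1 UMI of Pdgfra were taken as Pdgfra cells. Each gene was scaled to 10000 UMIs per cell, log-transformed and standardised over the Pdgfra cells of both libraries. A cell was a member when the mean standardised level of these 4 genes was at least 0.5 and was the highest of 6 such scores. The other 5 scores rest on Dpp4, Pi16, Cd55 and Sema3c (score A), Cxcl14, G0s2, Plin2 and Pparg (B), F3, Fmo2, Mfap4 and Chrdl1 (C), Il6, Procr, Thbd and Adamts4 (D), and Itgbl1, Fbn2, Wnt4 and Tgfbi (E). The rule found 213 member cells among 2483 Pdgfra cells and 2854 passing cells of any kind. Of these, 95 of 1347 Pdgfra cells were members in the Paqr4 transgenic library, and 118 of 1136 in the WT library. The same measured values chose the cells, so the levels of the score genes, and all differences between member cells and other Pdgfra cells, are given as a description.

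The study compared droplet single-cell RNA profiles of Paqr4 transgenic and WT mice. Both libraries were made from the CD45-negative part of the stromal vascular fraction of white fat, sorted by flow cytometry. The stromal vascular fraction is the mix of cells left when fat is digested and the adipocytes are removed, and CD45 marks blood-derived cells. The sources used here give 3 pooled mice without saying whether per genotype, and they give neither age, sex nor strain, nor the promoter that drives the transgene. Each genotype had 1 library, so differences between genotypes carry no test, and each interval covers counting error at 95% but no variation between mice. Intervals of levels and ratios rest on summed UMIs and leave out variation between cells as well.

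Pdgfra marks the mesenchymal cells of fat from which new adipocytes form, and several states of them are told apart by surface and secreted proteins. Pleiotrophin, the product of Ptn, is a secreted heparin-binding growth factor that acts through receptor phosphatases, syndecans and other receptors. Ackr4 encodes an atypical chemokine receptor that takes up and destroys the chemokines CCL19, CCL21 and CCL25 without classical signalling. Ppp2r2b encodes a regulatory B subunit of the protein phosphatase PP2A, and Enpp3 encodes an ectoenzyme that cleaves extracellular nucleotides.

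The libraries held 43084906 UMIs (Paqr4 transgenic) and 44145257 UMIs (WT), and the passing cells of the libraries shared 0 barcodes. Member cells had a median of 20316 UMIs in the transgenic library and 24031.5 in WT, close to the 19547.5 and 22512.5 of the other Pdgfra cells. Scrublet, a doublet caller, marked 4 transgenic and 1 WT cell and 0 members, too few to show that it worked. By depth, 8.42% of transgenic and 6.78% of WT members lay among the 10% of Pdgfra cells with most UMIs in their library. Xist, the RNA of the silenced X chromosome of female cells, had 0 UMIs in transgenic members and 970 UPM, that is UMIs per 1000000 UMIs of the same cells, in WT members. Y-linked Ddx3y stood at 108 UPM in transgenic and 2.11 UPM in WT members. Sex and genotype therefore cannot be told apart in any comparison of these libraries.

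The score genes lie on different chromosomes. In GRCm38 (GENCODE M21) Ptn lies on chromosome 6 from 36714929 to 36810220, Ackr4 on chromosome 9 from 104084157 to 104126933 and Enpp3 on chromosome 10 from 24772406 to 24842823, all on the minus strand. The stretches before the RefSeq starts (GRCm38.p6) of Ptn, Enpp3 and Mmp3, the last being the gene outside the score with the highest levels in member cells relative to other cells, are shown because these genes were high in the member cells. The bases are those of the 250-base window before the start that no GENCODE exon covers, written along the gene's strand, and capitals mark letters found by a search on both strands for TATAAA (the TATA box), for CCAAT (the CCAAT box) and for TGAGTCA (the AP-1 site).
Ptn, chr6:36810221-36810429, minus strand: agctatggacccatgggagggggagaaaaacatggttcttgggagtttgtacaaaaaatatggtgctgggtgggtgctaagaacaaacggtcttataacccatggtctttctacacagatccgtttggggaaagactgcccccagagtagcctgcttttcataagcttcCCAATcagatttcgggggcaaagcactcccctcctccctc
Enpp3, chr10:24836226-24836445, minus strand: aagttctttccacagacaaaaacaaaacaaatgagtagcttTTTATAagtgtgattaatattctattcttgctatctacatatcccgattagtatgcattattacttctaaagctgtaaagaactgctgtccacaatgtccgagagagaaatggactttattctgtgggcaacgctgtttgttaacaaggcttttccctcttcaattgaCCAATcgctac
Mmp3, chr9:7445572-7445821, plus strand: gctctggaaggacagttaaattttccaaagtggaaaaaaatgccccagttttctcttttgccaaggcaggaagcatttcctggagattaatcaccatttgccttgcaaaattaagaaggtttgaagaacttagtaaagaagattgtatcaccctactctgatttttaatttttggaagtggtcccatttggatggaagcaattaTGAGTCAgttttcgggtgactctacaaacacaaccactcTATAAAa
Ptn had CCAAT 81 bases before its start and Enpp3 had it 41 bases before, with TATAAA on the opposite strand at 209 bases. Mmp3, which encodes the secreted protease stromelysin-1, had TATAAA at 7 bases and TGAGTCA at 46 bases. Among 32851 RefSeq promoter windows, 33.8% held CCAAT, 12.4% TATAAA and 4.46% TGAGTCA, so a match to CCAAT is common, and a match of letters says nothing of binding. The RefSeq start of Enpp3 lies inside the longer GENCODE gene.

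Ptn set the libraries apart most among the score genes. In transgenic members it stood at 24.7 UPM (18.2 to 32.8, exact Poisson interval) from 48 UMIs, and in WT members at 282 UPM (262 to 302) from 802 UMIs. Only 12 of 95 transgenic members held a Ptn UMI, against 66 of 118 WT members, and 5 cells held 83.3% of the transgenic and 34.0% of the WT Ptn UMIs. The median member had 0 Ptn UMIs in the transgenic library and 1 in WT, and the highest had 26 and 81. Other Pdgfra cells had 1.49 UPM in the transgenic library and 9.85 UPM in WT. Both of these lay no higher than the level of free RNA, read from barcodes with 50 or fewer UMIs, which was 4.55 UPM (2.08 to 8.63) and 13.8 UPM (10.1 to 18.5). This level gives the make-up of free RNA and not the amount of it in a cell. A Ptn UMI was held by 16 of 1252 other transgenic and 56 of 1018 other WT Pdgfra cells, with up to 6 and 32 UMIs. The label that names these cells after Ptn thus describes part of the WT members and few of the transgenic ones. Ptn took part in choosing the members, so its presence in them is no test of the label.

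Ackr4 was highest in the other library. It stood at 231 UPM (210 to 254) in transgenic members, where 82 of 95 cells held a UMI, and at 91.7 UPM (80.9 to 103) in WT members, where 62 of 118 did. The median member had 4 Ackr4 UMIs in the transgenic library and 1 in WT, and the highest had 25 and 22. Other Pdgfra cells held 40.5 UPM in the transgenic library and 16.3 UPM in WT, beside free RNA levels of 36.4 and 12.6 UPM. The member cells thus stood 5.71-fold and 5.63-fold above the other cells, while the level itself was 2.52 times higher in transgenic than in WT members. An Ackr4 UMI was held by 364 of 1252 other transgenic and 176 of 1018 other WT Pdgfra cells, with up to 21 and 10 UMIs. Ackr4 was therefore not confined to members, and the part of free RNA in these counts was not tested.

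Ppp2r2b, a gene of chromosome 18, and Enpp3 were present in most members of both libraries. Ppp2r2b stood at 340 UPM in transgenic and 473 UPM in WT members, against 78.1 UPM and 181 UPM in the other Pdgfra cells. It had a UMI in 55 of 95 transgenic and 84 of 118 WT members, with medians of 2 and 7 UMIs and maxima of 57 and 63. Enpp3 stood at 453 UPM in transgenic and 610 UPM in WT members, against 111 UPM and 117 UPM in the other cells. It had a UMI in 85 of 95 transgenic and 111 of 118 WT members, with medians of 4 and 6 UMIs and maxima of 114 and 146. Of the 4 genes, Enpp3 was the most widely detected, in members and also in 60.6% of the other transgenic and 67.6% of the other WT Pdgfra cells.

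Endothelial cells, picked by UMIs of Pecam1 and Cdh5 without Pdgfra, gave a comparison outside the Pdgfra cells. Blood and lymphatic ones were not told apart, and it was not tested whether they should lack the score genes. They were shallower, with medians of 7989 UMIs in 75 transgenic cells and 9882 UMIs in 93 WT cells. Ptn was seen in 0 of the transgenic endothelial cells, which allows a share of cells with a UMI of up to 4.80% (Clopper-Pearson), and in 2.15% of the WT ones. Ackr4 was seen in 1.33% and in 0 (up to 3.89%), and Ppp2r2b in 0 in both libraries. Enpp3 was seen in 15 of 75 transgenic and 10 of 93 WT endothelial cells, above the shares of the other score genes there. With every cell thinned to 5000 UMIs, which left out 1 transgenic and 2 WT members, Ptn was seen in 9.57% of transgenic and 39.7% of WT members. Thinned shares were 59.6% and 30.2% for Ackr4, 45.7% and 55.2% for Ppp2r2b, and 59.6% and 67.2% for Enpp3. The order of the libraries was the same for each gene with and without thinning.

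**Figure D1:**
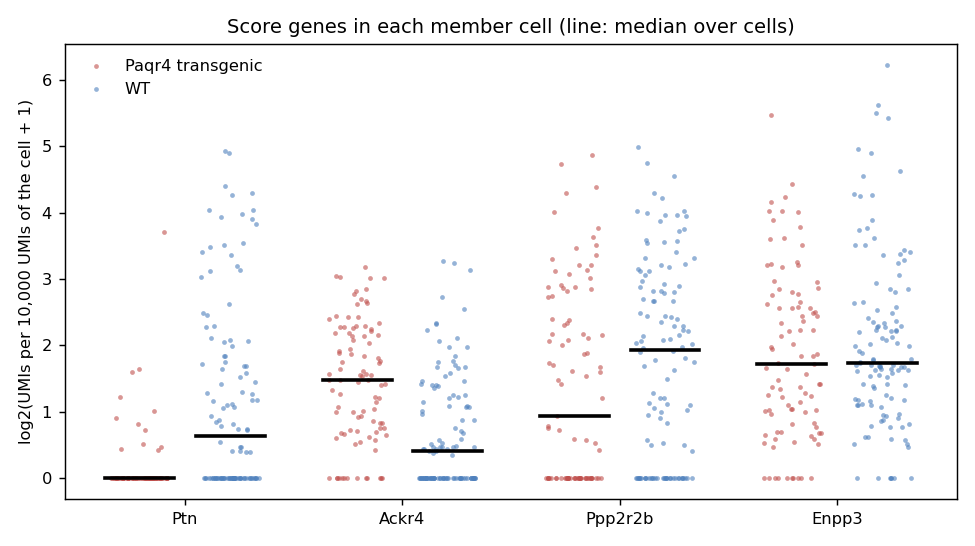
Level of each score gene in every member cell, as log2 of UMIs per 10,000 UMIs of the cell plus 1, with 95 Paqr4 transgenic cells left of 118 WT cells for each gene and a black line at the median cell. Most transgenic cells lie at 0 for Ptn, the transgenic median is above the WT median for Ackr4, and it is below it for Ppp2r2b.

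The combinations of score genes differed between the libraries. All 4 had a UMI in 3 of 95 transgenic members and in 26 of 118 WT members, and 3 of the 4 in 44 and 40. In the transgenic library the most frequent combination was Ackr4 with Ppp2r2b and Enpp3, in 36 members, followed by Ackr4 with Enpp3, in 27. In WT, all 4 genes came first, followed by Ppp2r2b with Enpp3, in 25 members. The gene with the highest standardised level was Ackr4 in 50.5% of transgenic members and 11.0% of WT members, and Ptn in 3.16% and 40.7%. Ppp2r2b led in 22.1% and 28.8%, and Enpp3 in 24.2% and 19.5%. Member cells of the transgenic library were thus mostly Ackr4-led and those of WT most often Ptn-led, and every comparison of the libraries in member cells compares sets of this different make-up.

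**Figure D2:**
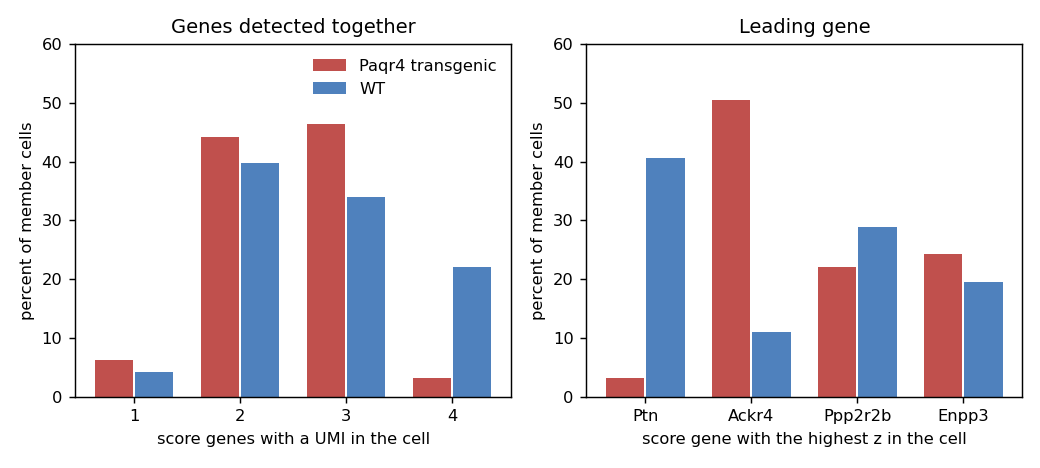
Left, percent of member cells in which 1, 2, 3 or 4 score genes had a UMI; right, percent of member cells in which each score gene had the highest standardised level, with Paqr4 transgenic bars left of WT bars. All 4 genes were seen in 3.16% of transgenic and 22.0% of WT members, and the leading gene was most often Ackr4 in the transgenic library and Ptn in WT.

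Over all Pdgfra cells the pairwise correlations of the log-scaled score genes were weak. In the 1347 transgenic cells they ran from 0.01 (Ptn with Enpp3) to 0.13 (Ackr4 with Enpp3). In the 1136 WT cells they ran from −0.04 (Ptn with Ppp2r2b) to 0.24 (Ptn with Ackr4). Cells share depth and library, and correlations of this size in sparse counts are no finding. Ptn and Ackr4 were seen together in 15 transgenic and 53 WT cells, where 9.27 and 25.6 would follow from their separate shares, and depth, which raises such counts, was not accounted for.

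A score built from the other 3 genes, with the same threshold, showed how far each left-out gene followed them. Cells chosen without Ptn had 14.1 UPM of Ptn in the transgenic library against 1.81 UPM in the rest (log2 2.96, from 2.32 to 3.61), and 113 UPM in WT against 29.4 UPM (log2 1.94, from 1.75 to 2.13). Ackr4 in cells chosen without it was higher by 0.57 (0.28 to 0.84) in the transgenic library and by 1.30 (1.05 to 1.55) in WT, on the log2 scale. Enpp3 was higher by 0.62 (0.47 to 0.77) and 1.25 (1.15 to 1.36). Ppp2r2b was higher by 0.22 (0.04 to 0.40) in the transgenic library and stood at −0.17 (−0.30 to −0.03) in WT. Ptn, Ackr4 and Enpp3 were thus each higher in cells chosen by the other 3 genes in both libraries, whereas Ppp2r2b in WT was lower in such cells. The 4 genes were put together with earlier results of these data known, so these values are a description and no independent check of the score. For Ptn this rested on few transgenic cells. Of the 146 transgenic cells chosen without Ptn, 6.85% held a Ptn UMI, against 1.50% of the rest. In WT these shares were 26.6% of 128 cells and 8.73%.

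Members formed a range of scores. The median score was 0.82 in transgenic and 1.13 in WT members, and the highest 2.60 and 5.11. Scores from 0.5 to 0.6 were found in 14 transgenic and 16 WT members, and scores of 1 or more in 28 and 68. The lowest member scored 0.517 in the transgenic library and 0.501 in WT, and the highest cell left out, with this score as its highest, 0.485 and 0.486. A further 97 transgenic and 94 WT cells reached 0.5 but had another score that was higher. The second-highest score was A in 61 members and C in 60, followed by D in 38, B in 29 and E in 25.

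Clustering of the Pdgfra cells on 2000 variable genes placed members in all 12 Leiden clusters. The cluster with most members held 19 transgenic and 33 WT members, which was 24.4% of all members and 21.7% of that cluster. The next held 16 and 24. In the cluster with the highest share of members, 24 transgenic and 10 WT members made up 21.8% of its cells. The members were thus no cluster of their own, and as a group are called by their score genes here.

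Member cells were fibroblast-like in both libraries, as were the other Pdgfra cells. The fibroblast core genes (Pdgfra, Dcn, Col1a1, Col1a2, Col3a1, Lum, Pdgfrb, Thy1) summed to 17683 UPM in transgenic and 18165 UPM in WT members, and each member held at least 3 UMIs of them. In the other Pdgfra cells the sums were 17489.5 and 16778 UPM. A Pdgfra UMI was required of all these cells, so this gene was present by choice. Dcn, which encodes the proteoglycan decorin, stood at 10151 and 10258 UPM. Thy1, a surface glycoprotein, was lower in members than in other Pdgfra cells, with log2 differences of −0.67 in the transgenic library and −1.16 in WT. Cd9, a tetraspanin of the cell surface, was higher, at 328 UPM in transgenic members against 197 UPM in other cells, and at 271 UPM in WT members against 144 UPM.

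Markers of immune, endothelial, epithelial and adipocyte cells were near 0, while endoneurial, mesothelial and red cell lists were not. The 8 immune markers summed to 3.61 UPM in transgenic and 3.16 UPM in WT members, with Ptprc, the gene of CD45, at 0 in both. The 8 blood endothelial markers summed to 10.8 and 5.62 UPM with Cdh5 at 0, the 6 lymphatic markers to 6.70 and 6.67 UPM, and the 8 epithelial markers to 3.09 and 1.05 UPM with Epcam at 0. The 7 Schwann cell markers summed to 11.3 and 16.2 UPM with Sox10 at 0, the 7 perineurial markers to 16.0 and 28.4 UPM, and the 8 pericyte or smooth muscle markers to 21.6 and 41.1 UPM. The 6 adipocyte markers summed to 3.61 and 1.05 UPM. Of 6 mesothelial markers, Msln, Upk3b, Lrrn4 and Upk1b were at 0 and Wt1 gave nearly the whole sum of 352 and 398 UPM. The 6 endoneurial fibroblast markers summed to 178 UPM in transgenic and 98.7 UPM in WT members, against 161 and 130 UPM in other cells. Red cell transcripts summed to 5369 and 8900 UPM, of which 5 cells held 92.2% and 93.1%. With levels scaled without haemoglobin and mitochondrial UMIs, the 12 highest and 12 lowest genes between genotypes, named below, all stayed at 2-fold or more. Otherwise the part of these sums in the differences between libraries was not tested.

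Outside the score, Mmp3, Piezo2, Adamts19, Mmp16 and Foxp2 were among the genes higher in member cells than in other Pdgfra cells. Of 3431 genes at 50 UPM or more in members, 0.437% were 1.5-fold or more above the other Pdgfra cells in both libraries, 15 genes that include the 4 score genes. Adamts19, a secreted metalloprotease, stood at 184 UPM in transgenic members against 86.1 UPM in other cells, and at 100 UPM in WT members against 49.5 UPM, a log2 difference of 1.10 (0.93 to 1.26) and 1.02 (0.83 to 1.21). Piezo2, a mechanically gated ion channel, stood at 148 UPM against 75.2 UPM in the transgenic library and at 177 UPM against 67.5 UPM in WT (0.97 and 1.39). Foxp2, a forkhead transcription factor, differed by 1.04 and 0.89, and Mmp16, a membrane-bound metalloprotease, by 0.91 and 1.02. C7, which encodes a protein of the complement attack complex, stood 1.83-fold above the other cells in each library, at very different member levels of 608 UPM (transgenic) and 90.3 UPM (WT). Members and other cells overlapped for each of these genes, since Adamts19, for instance, had a UMI in 55.8% of transgenic members and 36.5% of other transgenic cells.

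A few genes were high in members through few cells. Mmp3 stood at 67.5 UPM in transgenic members against 23.0 UPM in other cells, and at 79.4 UPM in WT members against 16.1 UPM. Only 8 transgenic and 16 WT members held an Mmp3 UMI, and 5 cells held 96.9% and 81.9% of its UMIs. Bdkrb2, the bradykinin B2 receptor, differed by 0.67 and 1.34 on the log2 scale, with 85.8% and 91.0% of its member UMIs in 5 cells. Nfatc2, a transcription factor, differed by 0.52 in both libraries with 78.1% and 82.0% in 5 cells. For these genes the value describes a handful of cells and not the members at large.

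Bmp2, a bone morphogenetic protein, differed by 0.65 and 0.72, and Id2, a transcriptional target of BMPs, by 0.54 and 0.81. Ror2, a receptor for WNT5A, differed by 0.78 and 0.46, and Sulf2, a sulfatase that trims heparan sulfate outside the cell, by 0.63 and 0.56. Further genes of the same kind were Dock10 (0.83 and 0.67), Gem (0.71 and 0.57), Fbln1 (0.69 and 0.57), Osbpl6 (0.69 and 0.57), Spon2 (0.54 and 0.67), Pdzrn3 (0.53 and 0.73) and Mustn1 (0.47 and 0.87). These genes were named for the highest smaller value of their 2 differences, so that all lie above the other cells by choice.

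**Figure D3:**
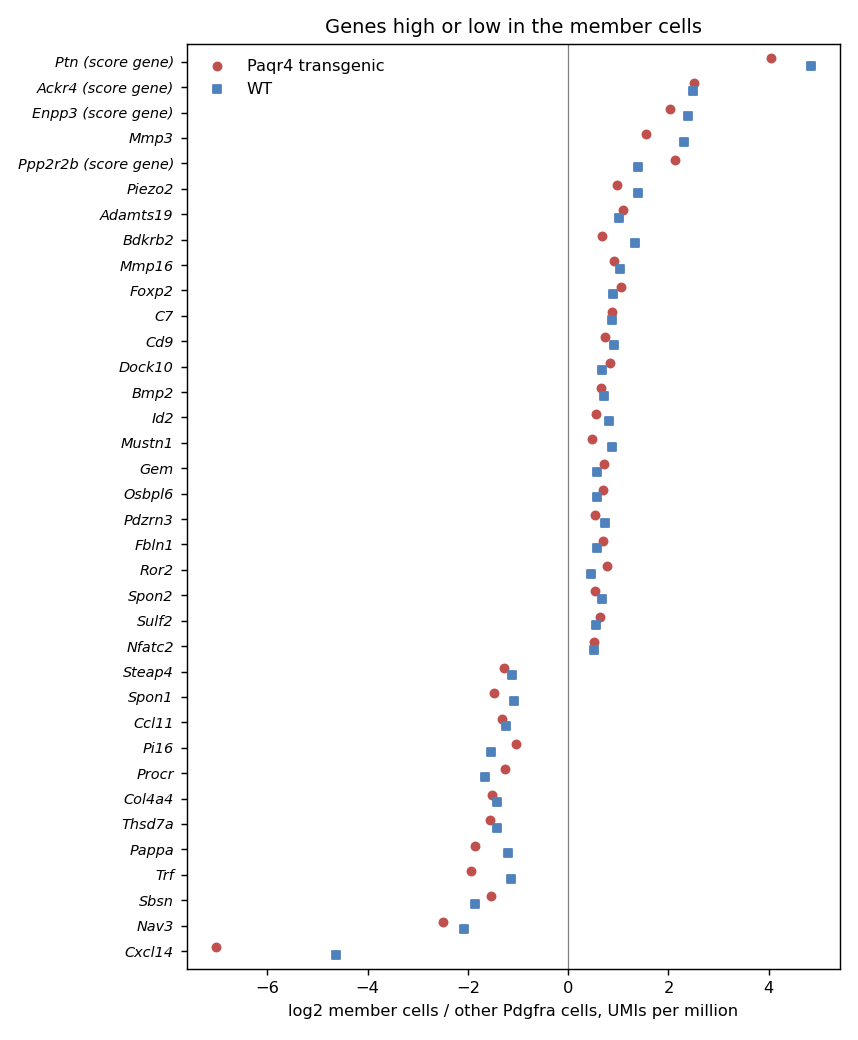
Log2 ratio of UPM in member cells over the other Pdgfra cells, for the genes named as high or low in both libraries, with a red circle for the Paqr4 transgenic and a blue square for the WT library. Ptn and Ackr4 lie furthest to the right in both libraries, and Cxcl14 furthest to the left at −7.02 and −4.63.

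Cxcl14, Nav3, Sbsn and Thsd7a were among the genes lowest in member cells relative to other Pdgfra cells. Of 3445 genes at 50 UPM or more in other cells, 1.19% were 1.5-fold or more lower in members of both libraries. Cxcl14, Procr and Pi16 belong to competing scores, so the rule itself kept them low. Cxcl14, a chemokine, had 1 UMI in transgenic and 5 UMIs in WT members (log2 −7.02, from −12.33 to −4.54, and −4.63, from −6.26 to −3.40). Nav3, a microtubule-associated protein, stood at 28.3 UPM in transgenic members against 161 UPM in other cells, and at 72.0 UPM in WT members against 305 UPM. Thsd7a, a membrane protein with thrombospondin repeats, stood at 310 UPM against 917 UPM in the transgenic library and at 252 UPM against 677 UPM in WT. Ccl11, the eosinophil chemokine eotaxin, was lower by 1.32 and 1.24 on the log2 scale. The others were Sbsn (−1.54 and −1.85), Trf (−1.93 and −1.15), Pappa (−1.86 and −1.21), Col4a4 (−1.52 and −1.41), Spon1 (−1.48 and −1.07) and Steap4 (−1.28 and −1.13).

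By list, differences between members and other cells were few. Among 8468 genes at 10 UPM or more, 0.614% were 1.5-fold or more higher and 0.709% lower in members of both libraries. Of 17 measured chemokines and cytokines, 0 were higher and 4 lower, namely Ccl11, Ccl7, Il6 (a gene of score D) and Cxcl9. Of 18 matrix proteases and inhibitors, Mmp3, Mmp16 and Mmp11 were higher and Adamts5, which degrades aggrecan, was lower (−0.77 and −0.91). Of 16 adipogenesis and lipid genes, 0 were higher and Fabp4 (a fatty acid carrier), Lpl (lipoprotein lipase) and Plin2 (a gene of score B) were lower. Of 18 transcription factors of fibroblast identity, Foxp2 and Hoxa5 (0.66 and 0.64) were higher. In the pleiotrophin and midkine list, 1 of 10 measured genes was higher, Ptn itself, and among its receptors Sdc4 (0.02 and 0.04) and Lrp1 (−0.12 and 0.06) were level with the other cells. Of 14 PP2A subunits, 1 was higher, Ppp2r2b itself. Of 10 ectonucleotidase and adenosine genes, Enpp3 alone was higher, and the related Entpd1 (CD39) differed by 0.40 and 0.59.

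Cells of scores A and C, the most frequent second scores, gave a nearer comparison. Ptn was as low in them as in other cells, at 1.27 UPM (score A) and 1.16 UPM (C) in the transgenic library and at 8.66 and 3.87 UPM in WT. Ppp2r2b stood at 209 UPM in transgenic and 369 UPM in WT cells of score A, so members were higher by 0.70 and 0.36 on the log2 scale there, but by 2.62 and 2.46 over cells of score C. C7, by contrast, was lower in members than in cells of score C (−0.80 and −1.83) and higher than in cells of score A (2.08 and 2.83). Fbln1, a matrix glycoprotein, was placed in the same way (−0.56 and −0.47 against C, 2.17 and 2.33 against A). Adamts19 was higher in members than in either, by 0.93 and 0.95 over score A and by 0.94 and 1.55 over score C. Piezo2 was also higher than in either, by 0.96 and 1.85 over A and by 0.53 and 0.76 over C.

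In the transgenic library, Piezo2 stood at 74.4 UPM in the 12 members with a Ptn UMI and at 159.6 UPM in the 83 without. The shares of these cells with a Piezo2 UMI hardly differed, at 41.7% and 44.6%. In WT the order of the levels was the reverse, at 262 UPM in the 66 members with a Ptn UMI and at 66.0 UPM in the 52 without. A Piezo2 UMI was held by 72.7% and 36.5% of these WT cells. Without the cells that held a Ptn UMI, WT members no longer stood above the other cells for Piezo2 (log2 −0.03) or Bdkrb2 (−0.21), nor transgenic ones for Mmp3 (−0.13), whereas Adamts19 stayed at 1.12 in the transgenic library and 1.13 in WT. For Mmp3 this rested on 2 cells, which held all 96 Mmp3 UMIs of the transgenic members with a Ptn UMI. Grem1, a secreted BMP antagonist, had 125 UMIs in the WT members with a Ptn UMI, spread over 10 cells, and 3 UMIs in those without. In transgenic members Grem1 had 1 UMI. Among the 26 WT members with all 4 score genes, 24 held a Piezo2 UMI and the level was 434 UPM. These cells were deeper, with a median of 27477 UMIs, against 24031.5 in the 66 WT members with a Ptn UMI. Of the 3 transgenic members with all 4 score genes, 2 held a Piezo2 UMI, at 229 UPM. The split was made after the data had been seen. The other score genes are not compared across it, since a cell without Ptn can be a member only through them.

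Between genotypes, Sult1e1, Col8a1, Cilp and C7 had the highest ratios in transgenic over WT members, and Ptn, Lsamp, Nrxn3 and Igfbp5 the lowest. This ranking covers genes at a mean of 50 UPM or more and leaves out sex-linked, predicted, mitochondrial, haemoglobin and immunoglobulin genes. Xist and Ddx3y, whose levels are given above, lay outside the range of these ratios. Of 3431 genes at 50 UPM or more, 1.14% (39 genes) were 2-fold or more higher and 1.02% (35 genes) 2-fold or more lower in transgenic than in WT members. Col8a1, a short-chain collagen, stood at 182 UPM (164 to 202) in 34 of 95 transgenic members and at 9.13 UPM (5.96 to 13.4) in 11 of 118 WT members, a log2 ratio of 4.32 (3.74 to 4.95). In other Pdgfra cells its ratio was 2.14 (1.99 to 2.29). Cilp, a cartilage intermediate layer protein that binds TGF-beta, stood at 205 UPM in transgenic and 29.1 UPM in WT members (2.81, against 1.29 in other cells). C7 had a ratio of 2.75, against 2.76 in other cells. Sult1e1, which inactivates oestrogens by sulfation, stood at 132 UPM in transgenic members and at 3.86 UPM in WT members, but the WT value came from 1 cell (5.10, against 4.65 in other cells).

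Further genes higher in transgenic members were Tgm2, a transglutaminase that crosslinks proteins (5.27-fold in members, log2 0.81 in other cells), Ctps, a CTP synthase (1.95 and 0.31), Hmcn2, a matrix protein (1.95 and 1.46), and Vav3 (1.90 and 1.35). Plcxd3 (1.80 and 0.86), Ccn2, a matricellular protein induced by TGF-beta (1.77 and 1.23), Depdc5, a subunit of the GATOR1 complex (1.73 and 0.30), and Slc12a2, a sodium-potassium-chloride cotransporter (1.62 and 0.02), completed the 12. Few cells carried some of them, since 5 transgenic members held 72.8% of the Slc12a2, 71.4% of the Depdc5 and 66.3% of the Ctps UMIs. Without the 5 cells of each library with most UMIs of the gene, these 3 were under 2-fold and the other 9 were not. Whether the ratios in members and in other cells differ was not tested.

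With the sex-linked and other classes of genes named above left out, Ptn had the lowest ratio among genes at a mean of 50 UPM or more. Its log2 ratio in members was −3.51 (−3.96 to −3.09), against −2.72 (−3.27 to −2.22) in other cells. Lsamp and Nrxn3, which encode neural adhesion proteins, followed. Lsamp stood at 23.7 UPM in 7 transgenic members and at 218 UPM in 32 WT members (−3.20, against −2.46 in other cells), and Nrxn3 at 25.2 and 146 UPM (−2.53 and −2.03). Igfbp5, a binding protein of insulin-like growth factors, stood at 51.5 UPM (41.9 to 62.6) in 17 transgenic members and at 250 UPM (232 to 269) in 69 WT members. Its ratio was −2.28 (−2.60 to −1.98) in members and −0.58 (−0.62 to −0.53) in other cells. Apoe, an apolipoprotein, had −2.07 and −1.02, and Cxcl12, the ligand of CXCR4, −1.59 and −0.71, at 62.3 UPM in transgenic and 188 UPM in WT members.

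Cyp7b1, an oxysterol hydroxylase (−1.86 and −0.73), Pcdh9, a protocadherin (−1.62 and −0.91), Peg3, a paternally expressed zinc finger gene (−1.54 and −1.27), Fst, which encodes the activin-binding follistatin (−1.47 and −0.79), and Zbtb16, the transcription factor PLZF (−1.47 and −1.69), were lower as well. Cxcl2, a neutrophil chemokine, had −2.09 and −0.66, but only 6 transgenic and 14 WT members held a UMI of it, and 5 cells held 98.3% and 86.9%. Zbtb16 was seen in 90 of 95 transgenic and 115 of 118 WT members, so nearly every member held a UMI of it, unlike Cxcl2. Among members without a Ptn UMI, Igfbp5 stood at 56.2 UPM in the transgenic library and at 248 UPM in WT. These sets still differed in make-up, with an Ackr4 UMI in 85.5% of the transgenic and 44.2% of the WT cells. The part of make-up in the Igfbp5 difference was not tested.

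**Figure D4:**
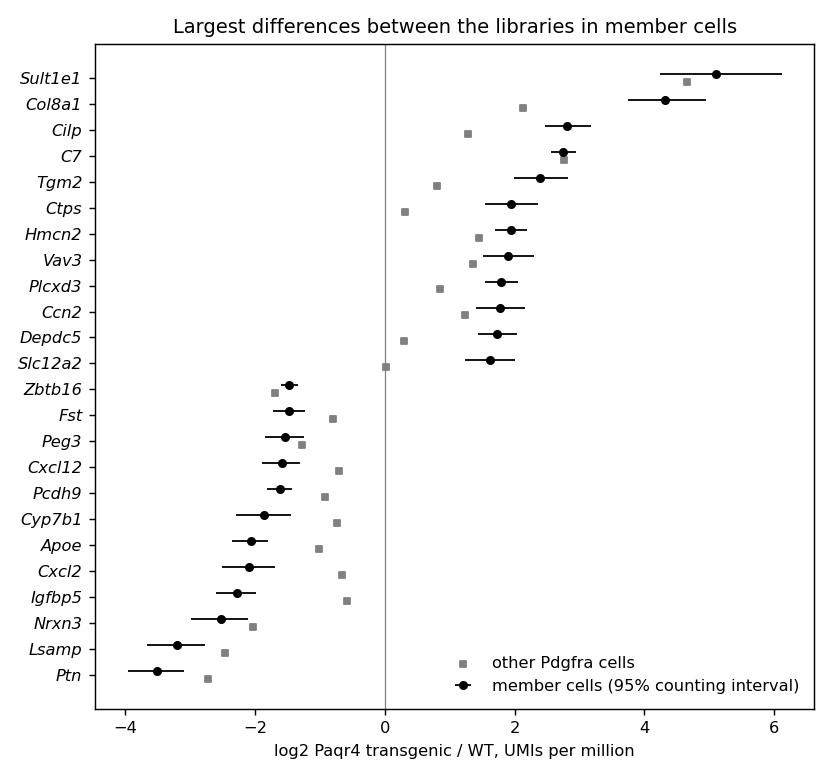
Log2 ratio of UPM, Paqr4 transgenic over WT, for the 12 highest and 12 lowest genes at 50 UPM or more in member cells (black circles, with exact conditional binomial 95% intervals for counting error) and the same ratio in the other Pdgfra cells (grey squares). Sex-linked genes are left out. Every named gene has the same sign in both sets of cells, with Slc12a2 near 0 in the other cells.

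The gene lists showed broader patterns, to be read against 7.33% of 8468 genes at 10 UPM or more that were 1.5-fold or more higher and 6.12% that were lower in transgenic than in WT members, with a median log2 ratio of 0.03. Of 18 measured genes of cholesterol and fatty acid synthesis, 10 were 1.5-fold or more higher and 0 lower, with a median of 0.61, against 0.57 in other Pdgfra cells. Idi1, an isomerase of the pathway (1.61), Cyp51, a sterol demethylase (1.53), Srebf2, the transcription factor that drives the pathway (0.93), and Msmo1 (0.91) were among them. Their levels were modest, with Idi1 at 24.7 UPM in transgenic and 8.08 UPM in WT members. The members thus had about the same median as the other Pdgfra cells here.

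Of 19 proteoglycans and matrix proteins, 8 were higher and 1 lower by that fold, with a median of 0.35 (other cells 0.27). Besides Cilp, Aspn (asporin, 1.13), Bgn (biglycan, 1.02) and Vcan (versican, 0.94) were higher, and Postn, the gene of periostin, was lower at 401 UPM in transgenic and 703 UPM in WT members (−0.81). Among 19 collagens, 2 were higher (Col8a1 and Col4a2, 0.60) and 2 lower (Col4a6 and Col12a1), and the fibrillar Col1a1 (−0.16) and Col3a1 (−0.09) differed little. Of 12 retinoid and aldehyde genes, 4 were higher and 0 lower, among them Rbp4, the retinol carrier (1.31), and Aldh1a2, which makes retinoic acid (0.85).

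Lists with more lower genes held neural adhesion, IGF and interferon genes. Of 19 axon guidance and neural adhesion genes, 1 was higher and 7 lower, with a median of −0.14 (other cells −0.17). Of 12 genes of the IGF pathway, 0 were higher and 4 lower, namely Igfbp3 (−3.91, at 1.55 UPM in transgenic and 23.2 UPM in WT members), Igfbp5, Igf1 (−0.86) and Pik3r1 (−0.74). Igf1, the growth factor itself, stood at 170.5 UPM in transgenic and 309 UPM in WT members, and its ratio in other cells was −0.18. Of 26 interferon response genes, 2 were higher and 5 lower, with a median of −0.26 (other cells −0.15), the lower ones being Psmb8 (−1.09), Tap1 (−1.06), Irf1 (−1.01), Xaf1 (−0.84) and Irf7 (−0.81). The 2 higher ones, Rsad2 (2.76) and Ifit3 (1.10), had 97.2% and 91.8% of their transgenic UMIs in 5 cells and turned to −0.63 and −0.53 without the 5 highest cells of each library.

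Of 17 chemokines and cytokines, 4 were higher and 3 lower, with a median of −0.31 (other cells −0.17). Il33, an alarmin, stood at 49.96 UPM in transgenic and 114 UPM in WT members (−1.19), whereas Cxcl10 stood at 164 and 74.1 UPM (1.15) with 87.8% of its transgenic UMIs in 5 cells. Among the 5 measured atypical chemokine receptors and their ligands, Ackr4 (1.34) and Ccl25 (1.90, at 34.0 UPM in transgenic and 9.13 UPM in WT members) were higher, and Cxcl12 and Ackr1 (−0.62) lower. Ccl25 is a chemokine that Ackr4 takes up, and its ratio in other cells was 0.36. Ackr3, a scavenger of CXCL12, differed little (0.12). Of 20 immediate early genes, which respond to tissue digestion, 2 were higher and 2 lower with a median of −0.28, against −0.02 in other cells, so WT members held more of them, such as Fos at 3288 UPM in transgenic and 4085 UPM in WT members. The part of digestion in the other differences was not tested.

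The score genes' own families were as follows. Of 10 genes of the pleiotrophin and midkine axis, 0 were higher and 2 lower, Ptn and Mdk, the gene of the related growth factor midkine, at 6.70 UPM in transgenic and 15.8 UPM in WT members (−1.24, other cells −0.93). Of 14 PP2A subunits, 0 were higher and 0 lower, with a median of 0.00, and Ppp2r2b had −0.48 in members and −1.21 in other cells. Of 10 ectonucleotidase and adenosine genes, P2rx7, an ATP-gated channel, was higher (1.10), and Adora2b, an adenosine receptor, and Ank, a pyrophosphate transporter, were lower (−0.91 and −0.59). Enpp3 had −0.43 in members and −0.07 in other cells.

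Paqr4 itself was scarce in member cells. It had 16 UMIs in 95 transgenic members, 8.24 UPM (4.71 to 13.4), and 22 UMIs in 118 WT members, 7.73 UPM (4.84 to 11.7), a ratio of 1.07 with a log2 interval from −0.93 to 1.09. At this depth no Paqr4 difference could be seen, and the interval holds both a higher and a lower transgenic level. The labels do not say which part of the gene the transgene carries, so it is not known whether its RNA would be counted here. Other Pdgfra cells held 9.39 UPM in the transgenic library and 7.97 UPM in WT. Of 3 measured genes of the PAQR family, 0 passed 1.5-fold, and Adipor1, an adiponectin receptor, had −0.42. Of 27 genes of ceramide and sphingolipid metabolism, 4 were higher, S1pr3 (1.71), Cers6 (0.95), Smpd4 (0.86) and Ormdl2 (0.68), and 3 were lower, Sgpl1 (−0.74), Smpd3 (−0.74) and Ormdl3 (−0.65). Cers6, a ceramide synthase, stood at 142 UPM in transgenic and 73.4 UPM in WT members, while its ratio in other cells was 0.27.

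Member cells made up 7.05% of Pdgfra cells in the transgenic library (5.74 to 8.55, Clopper-Pearson) and 10.4% in WT (8.67 to 12.3), a ratio of 0.679. The direction rested on how the cells were called. With the genes standardised within each library the shares were 8.83% and 8.36%, a ratio of 1.06, and members without a Ptn UMI were 6.16% of transgenic and 4.58% of WT Pdgfra cells, a ratio of 1.35. With the score built without Ptn the shares were 10.8% and 11.3%, and without Ackr4 5.42% and 13.6%. The ratio thus moved with the presence of Ptn or Ackr4 in the score, and these genes also differ in level between the libraries, so the shares are no count of a separate cell type. Over the 16 other ways of calling the cells, 14 kept the lower transgenic share.

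**Figure D5:**
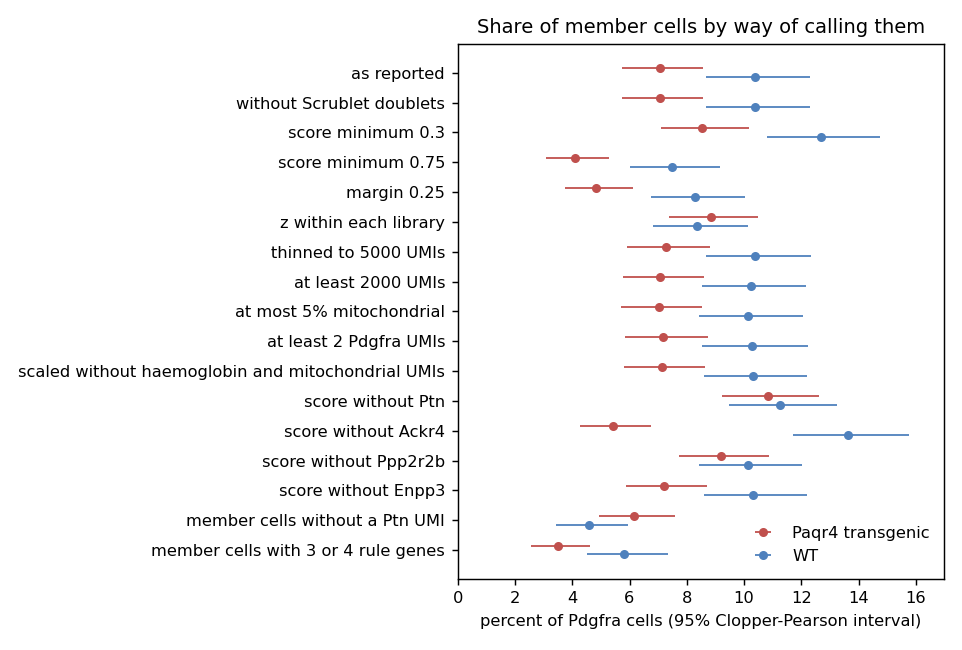
Percent of Pdgfra cells that were members, with exact Clopper-Pearson 95% intervals for counting error, as reported and under 16 other ways of calling the cells, with the Paqr4 transgenic point (red) above the WT point (blue). The transgenic share is below the WT share except with genes standardised within each library and in members without a Ptn UMI.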

How the data were processed

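The authors deposited whole-number UMI counts per gene and droplet barcode, made per the submitters' processing notes with Cell Ranger 7.0.0 against mm10. The counts were not normalised, and all 997538 transgenic and 1175238 WT barcodes were present, so cells were picked here. Member cells and their 4-gene rule, the 38 gene lists and 11 marker lists of other cell types, and the tests were chosen with earlier results of these data known. Counts were summed per library and class of cells and divided by the class total. Ratios carry exact conditional binomial intervals, levels exact Poisson and shares Clopper-Pearson intervals, all at 95% and for counting error only; a count of 0 was read against 3 UMIs. With 1 library per genotype no test was made. Genes were named as the 24 with the highest smaller (score genes among them) and the 12 with the lowest larger of their 2 members-over-other ratios, and as the 12 highest and 12 lowest transgenic over WT ratios, at a mean of 50 UPM or more, without predicted, mitochondrial, haemoglobin, immunoglobulin and sex-linked genes. Up to 4 genes a list were named by size of ratio, and other list genes, such as Ackr3, Fos and Irf1, after their values were seen. Code for genes and intervals was tested on simulated counts. The simulated sums were Poisson draws without variation between cells, so they check the code and not how well the intervals hold for these data. No doublets were removed. Some genes and 2 lists are not reported here. Tools were python 3.11.15, numpy 2.4.6, scipy 1.17.1, pandas 2.3.3 and scanpy 1.11.5 with leidenalg 0.10.2. Alternatives changed the score, its threshold, the depth, the scaling and the cells.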

Additional observations from a re-analysis of the deposited data

Results flagged for a closer look

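The score genes were also found in cells that took no part in the comparisons, the 178 transgenic and 193 WT cells that passed the limits without a Pdgfra UMI. Each value lay above the level that a count of 0 allows, 1.93 UPM in the transgenic and 1.40 UPM in the WT library. Ptn stood at 71.5 UPM in transgenic and 38.3 UPM in WT cells of this kind, from 5 and 11 cells. Ackr4 stood at 14.8 UPM in transgenic and 7.93 UPM in WT cells, Ppp2r2b at 98.6 UPM and 89.6 UPM, and Enpp3 at 44.5 UPM and 28.9 UPM. For Ptn this transgenic level is above the 24.7 UPM of the transgenic member cells.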

How the results depend on the processing

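No paired analysis was possible because each genotype had 1 library, and no library could be left out. The member shares moved beyond their counting intervals under several ways of calling the cells. A score minimum of 0.75 gave 4.08% in transgenic and 7.48% in WT Pdgfra cells, a margin of 0.25 over the next score gave 4.83% and 8.27%, and a minimum of 0.3 gave 12.7% in WT. Standardising within each library gave 8.83% and 8.36%, which turned the ratio to 1.06 (0.728 to 1.54). Leaving Ptn out of the score gave 10.8% in the transgenic library, leaving out Ppp2r2b gave 9.21%, and leaving out Ackr4 gave 5.42% and 13.6%, a ratio of 0.397. Of the sets added after seeing the data, members without a Ptn UMI gave 4.58% in WT and a ratio of 1.35, and members with 3 or 4 score genes gave 3.49% and 5.81%. For genes 2-fold or more apart between genotypes, thinning to 5000 UMIs gave 66 higher and 53 lower ones, against 39 and 35, and members with 3 or 4 score genes gave 54 lower ones.

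All 12 named higher genes kept their direction in each alternative, as did all 12 lower ones, except that Ptn had no value in members without a Ptn UMI. Some list and score genes turned sign between genotypes (log2). Cxcl14 became 0.13 at a minimum of 0.75 and 3.01 when standardised within libraries. Thinning turned Bmp6 to −0.83, and Cxcl9 and Itgbl1 to −0.31. Cxcl9 was −2.03 without Ptn-positive members, and with 3 or 4 score genes Col4a6 was 0.094 and Sema3e 0.22. Without the 5 cells with most UMIs of the gene, Ifit3 was −0.53 and Rsad2 −0.63. Between members and other cells, Wnt4 in WT turned to 0.30 when thinned, and without Ptn-positive members Mmp3 turned to −0.13 in the transgenic library, and Piezo2 to −0.033, Bdkrb2 to −0.21 and Ptn to −2.01 (a bound) in WT. Ppp2r2b in WT was −0.17 with a score without itself. Beyond what each alternative does by construction, the cause was not tested. Depth limits genes under 3 UMIs, which is 1.55 UPM in transgenic and 1.05 UPM in WT members.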

Other observations

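Further gene groups of the member cells showed smaller differences between genotypes, to be read against 7.33% of all genes higher and 6.12% lower by 1.5-fold. Of 23 heat shock and ER chaperone genes, 2 were 1.5-fold or more higher and 0 lower in transgenic than in WT members, with a median log2 ratio of 0.16, against 0.22 in other Pdgfra cells. Of 16 elastic fibre genes, 2 were higher and 0 lower, and Fbln2, which encodes fibulin-2, stood at 998 UPM in transgenic and 539 UPM in WT members. Of 11 genes of FGF ligands and receptors, 1 was higher and 3 lower. Fgf10, a growth factor for preadipocytes, was lower with −1.69, Fgf7 with −0.80 and Fgf12 with −4.77, at 1.55 UPM in transgenic and 42.1 UPM in WT members. Of 19 cytokine receptors, 0 were higher and 3 lower, namely Il4ra (−1.87), Lepr, the leptin receptor (−1.40), and Lifr (−0.90).

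Of 17 Wnt genes, 1 was higher (Wnt5b, 1.08) and 3 lower, among them Sfrp2, a secreted Wnt inhibitor, at 2.06 UPM in transgenic and 20.4 UPM in WT members. Of 24 genes of TGF-beta and BMP signalling, 4 were higher and 3 lower. Of 20 steroid hormone genes, 2 were higher and 2 lower, and of 16 adipogenesis and lipid genes 1 was higher and 3 lower, including Cebpb, an early adipogenic factor, at 131 UPM in transgenic and 228 UPM in WT members. Hedgehog and Notch genes (12 measured), complement genes (12) and fibroblast transcription factors (18) each had 1 higher and 1 lower gene, proteases and inhibitors (18) had 2 higher and 2 lower, and proliferation genes (2) had none.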
